A study of Drosophila melanogaster with 10 samples.

Results

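The RNA of 10 blood cell genes was followed in extracts from Drosophila melanogaster wing imaginal discs, the larval epithelia that give rise to the adult wing and notum. The genes were chosen by name, as the 10 of 13041 genes in the expression table whose symbol equals Hml, Pxn, Sr-CI, NimC1, eater, NimC2, Nplp2, PPO1, PPO2 or PPO3. The first 7 stand for plasmatocytes, PPO1 and PPO2 for crystal cells and PPO3 for lamellocytes. All 10 passed the filter on low values. The larvae carried the genotype yw and no treatment is named in the labels, so as labelled the groups differed in age alone: 6, 15, 25, 35 and 48 h past the molt into the third larval instar, the last being the wandering stage. Each age had n = 2 libraries, A and B. The labels do not say whether A and B came from separate larval cultures, so p-values measure only the spread between these libraries, which may be technical.

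Blood cells of the larva, called haemocytes, circulate in the haemolymph or sit on tissues, and fall into a few classes. Plasmatocytes are the macrophage-like majority: they engulf microbes and cell debris and secrete clotting and extracellular matrix proteins. Crystal cells store prophenoloxidases, the enzymes that drive melanin formation at wounds, and lamellocytes are large flat cells, rare in unchallenged larvae, that wrap objects too large to engulf. The wing disc is an epithelium with attached tracheal branches and muscle precursors, and its own cells are not blood cells. The measured RNA came from whole tissue, and each gene is read relative to the rest of its library. So fewer blood cells, less RNA per blood cell and more RNA from other cells cannot be told apart.

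Libraries held 16814685 to 38003104 reads assigned to genes, and values are given as signal, the read count divided by a size factor for the library. One read was worth a signal of 0.596 to 1.40. All 9 wing disc epithelium genes tested (nub, vg, ap, wg, hh, en, sd, Dll and ci) were present and rose from 6 to 48 h by the test described with the next results. Their summed signal was 30563 and 29837 at 6 h and 61623 and 64679 at 48 h. The 15 h replicates differed most: the SD over genes of the log2 difference between A and B was 1.66 there and 0.537 to 0.872 at the other ages. Markers of other larval tissues were also present and moved with age, and their values stand beside the results they accompany.

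Between the first and the last age, 7 of the 10 blood cell genes fell, 2 rose and eater did not pass the test. Hml, Pxn, Sr-CI, NimC1, Nplp2, PPO1 and PPO2 were lower at 48 h, NimC2 and PPO3 were higher, and the median log2 change of the 10 was -2.54 against -0.10 over all 10453 genes tested. The test was limma on log2(signal + 1) over all genes and libraries, two-sided, with Benjamini-Hochberg adjustment and a threshold of 0.05. Over all tested genes, 26.8% were called lower, 22.3% higher and 49.1% either way. The higher calls were 45.5% of all calls, against 66.5% after quantile normalization and 58.8% with every library scaled to a common median. Those scalings moved the median of all genes to 0.33 and 0.23 on the log2 scale. The 10 genes together took 0.482% and 0.659% of all reads at 6 h and 0.0538% and 0.0659% at 48 h. Over the 5 ages, the moderated F test called 9 of the 10 genes, against a background of 38.4%, with eater again the exception (adjusted p = 0.372).

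**Figure D1:**
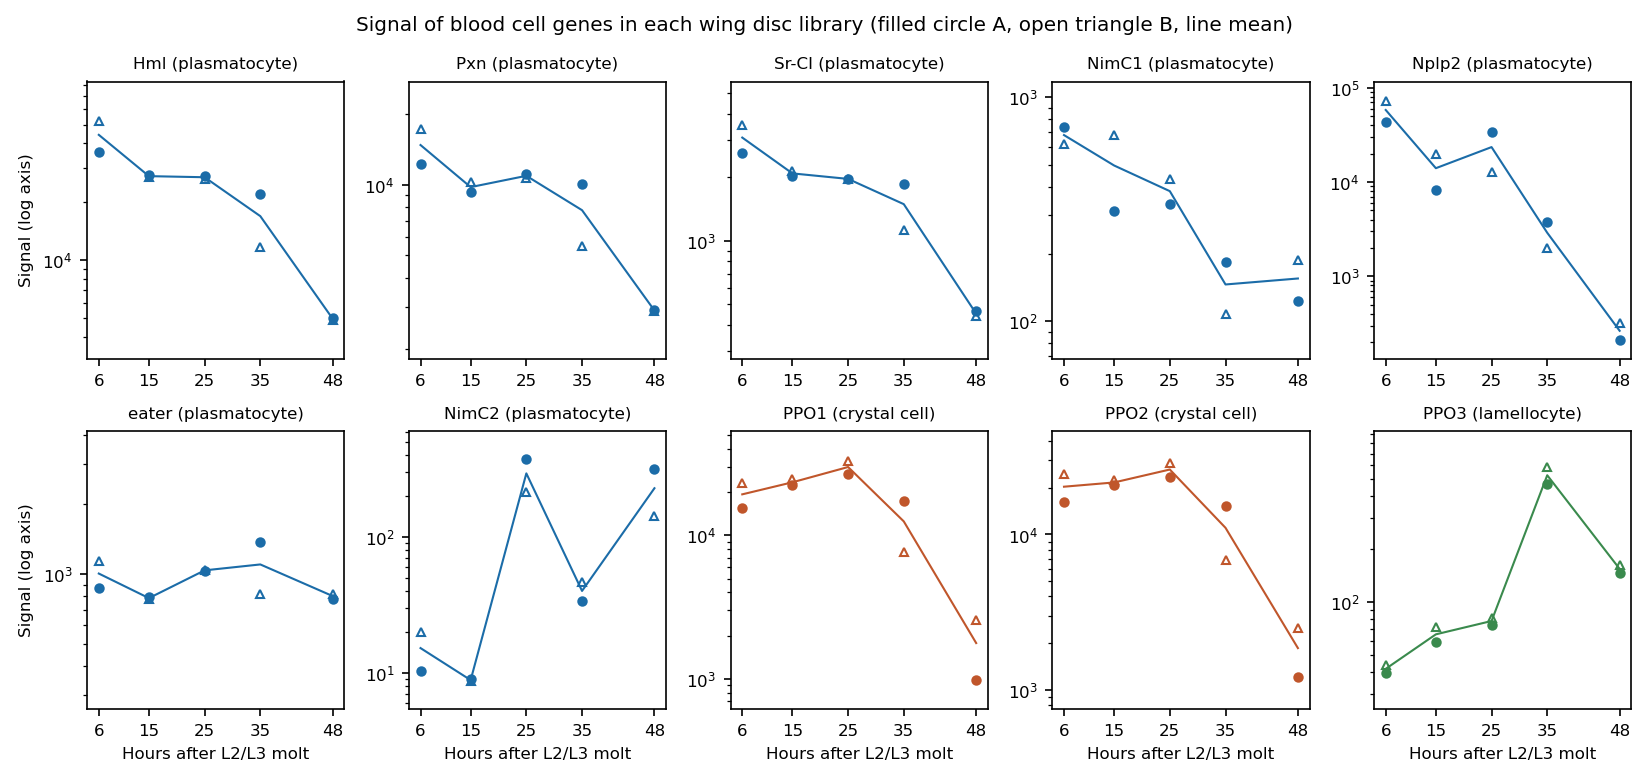
Signal (log axis) of each blood cell gene against hours after the molt, with replicate A as filled circles, replicate B as open triangles and a line through the mean of both. Hml, Pxn, Sr-CI, Nplp2, PPO1 and PPO2 have their lowest libraries at 48 h, PPO3 peaks at 35 h with 468 and 586, and eater stays between 780.3 and 1382.

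Hml, Pxn and Sr-CI followed one another through the instar. Hml (hemolectin, FBgn0029167, 3L:13846054-13860001 on the plus strand of dm6, the build of all positions given) encodes a large clotting protein and is the usual plasmatocyte marker. Its signal was 36330.1 and 52297 at 6 h, 27482 and 26699 at 15 h, 27157 and 26322 at 25 h, 21975 and 11665 at 35 h, then 5009 and 4891 at 48 h (replicates A and B in this order throughout). Both 48 h libraries lay below every earlier one, while the ranges of 15 and 25 h overlapped. The log2 change from 6 to 48 h was -3.14 (SE 0.29, adjusted p = 0.000527).

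Pxn (peroxidasin, FBgn0011828, 3L:2601455-2630064, minus strand) encodes a peroxidase that crosslinks basement membrane collagen. Its signal was 12294 and 17198 at 6 h, 9275 and 10239 at 15 h, 11101 and 10700.3 at 25 h, 10102 and 5455 at 35 h, then 2930.1 and 2880.1 at 48 h. As for Hml, both 6 h libraries stood highest and both 48 h libraries lowest. Pxn changed by -2.32 on the log2 scale from 6 to 48 h (SE 0.28, adjusted p = 0.00119). Pxn shares 82 exon bases with CG16986 on the opposite strand, a gene whose signal was 230.0 to 831, and 151 with a long noncoding RNA on the same strand that was not analysed here.

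Sr-CI (FBgn0014033, 2L:4121702-4124153, plus strand) encodes a scavenger receptor that binds bacteria. Its signal was 2616 and 3552 at 6 h, 2022 and 2153 at 15 h, 1967 and 1964 at 25 h, 1858 and 1127 at 35 h, then 465 and 440.3 at 48 h. As for Hml and Pxn, the 48 h values did not overlap with any other age. Its log2 change from 6 to 48 h was -2.75 (SE 0.24, adjusted p = 0.000458).

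Likeness of whole profiles was measured as the root mean square distance of log2(signal + 1), centred per gene, over the 10 libraries. Among 10452 other tested genes, Sr-CI had the profile nearest to Hml (distance 0.168) and Pxn ranked 10 (0.291). The 5 nearest genes outside the blood cell set were NtR (0.186), CG42711 (0.243), Ance-5 (0.247), CG8958 (0.254) and CG7120 (0.283). NtR, the nearest of them, had a signal of 1768 and 2489 at 6 h and of 364 and 287 at 48 h. The other plasmatocyte genes lay much farther from Hml, with NimC1 at rank 247, eater at 2127, Nplp2 at 9213 and NimC2 at 10253. The crystal cell gene PPO2, at rank 127 (0.594), lay nearer to Hml than NimC1 did. PPO1, at rank 402 (0.738), lay nearer than eater, Nplp2 and NimC2, and PPO3 ranked 9799. These ranks describe 10 libraries that share their depth and size factors with every gene.

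The phagocytosis receptor genes differed in direction. NimC1 (FBgn0259896, 2L:13973158-13976769, minus strand) encodes a Nimrod receptor for bacteria and carries the P1 antigen of mature plasmatocytes. Its signal was 736 and 622 at 6 h, 311 and 683 at 15 h, 333 and 430.3 at 25 h, 184 and 108 at 35 h, then 124 and 187 at 48 h. The 35 and 48 h libraries overlapped with each other and lay below all earlier ones, whereas those of Hml did not overlap between these ages. NimC1 fell from 6 to 48 h with a log2 change of -2.15 (SE 0.43, adjusted p = 0.00775). That call was lost under quantile normalization (adjusted p = 0.0727) and without 48 h A (adjusted p = 0.0536).

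The gene eater (FBgn0243514, 3R:27095867-27099679, minus strand) encodes a receptor with epidermal growth factor repeats that binds bacteria and holds plasmatocytes to the body wall. Its signal was 868 and 1141 at 6 h, 792 and 780.3 at 15 h, 1030.4 and 1044 at 25 h, 1382 and 818 at 35 h, then 783 and 822 at 48 h. All ages except 25 h had a library within the range of 780.3 to 868, and the highest mean was 1.40 times the lowest. The log2 change from 6 to 48 h was -0.31 (SE 0.24, adjusted p = 0.316), and with every library scaled to a common median it was 0.0097. This lack of a call does not show that eater was constant.

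NimC2 (FBgn0028939, 2L:13980126-13983269, plus strand), another Nimrod receptor gene of the same chromosomal cluster, was high at 25 and 48 h and low at the other ages. Its signal was 10.3 and 20.0 at 6 h, 8.99 and 8.60 at 15 h, 376 and 213 at 25 h, 33.6 and 46.4 at 35 h, then 316 and 142 at 48 h. The 25 and 48 h libraries overlapped with each other and with no other age. The log2 change from 6 to 48 h was 3.79 (SE 0.52, adjusted p = 0.00189), and 5.33 after quantile normalization. NimC2 shares 527 exon bases with rk on the opposite strand, the receptor of the hormone bursicon, and whether counting used strand is not given in the sources used here. The signal of rk was 10.3 and 38.7 at 6 h, 15.4 and 50.7 at 25 h, 21.5 and 43.9 at 35 h, then 158 and 105 at 48 h. So rk was high at 48 h with NimC2 and low at 25 h, where NimC2 had its highest mean; the part of shared reads in the NimC2 values was not tested.

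Nplp2 (FBgn0287423, 3L:13356376-13357223, plus strand), named for a neuropeptide-like precursor and encoding a small secreted protein, fell the most of the 10. Its signal was 43312 and 72637 at 6 h, 8268 and 19734 at 15 h, 34080.3 and 12799 at 25 h, 3782 and 2008 at 35 h, then 211 and 318 at 48 h. The 15 and 25 h libraries overlapped, and every 35 and 48 h library was lower than all earlier ones. The log2 change from 6 to 48 h was -7.75 (SE 0.62, adjusted p = 0.000357), and the highest mean was 219 times the lowest. Replicates of Nplp2 differed by up to 2.66-fold at 25 h and 2.39-fold at 15 h. The replicate with more Nplp2 also had the larger summed signal of 9 fat body genes at 6, 15, 25 and 48 h, though not at 35 h. That sum was 282045 and 575685 at 6 h, 113058 and 479076 at 15 h, 5352040 and 2308030 at 25 h, 104971 and 132973 at 35 h, then 45735 and 112050 at 48 h. The part of fat body RNA in the Nplp2 values was not tested.

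The crystal cell genes PPO1 and PPO2 were highest at 25 h and lowest at 48 h. PPO1 (FBgn0283437, 2R:17887220-17889973, minus strand) and PPO2 (FBgn0033367, 2R:9042261-9044709, minus strand) encode prophenoloxidases, which become active once a protease cleaves them. The PPO1 signal was 15535 and 23130.1 at 6 h, 22328 and 24593 at 15 h, 26722 and 33259.5 at 25 h, 17442 and 7596 at 35 h, then 981 and 2562 at 48 h. The PPO2 signal was 16086 and 24503 at 6 h, 20719.9 and 22503 at 15 h, 23549 and 28796 at 25 h, 15249 and 6833 at 35 h, then 1206 and 2514 at 48 h. Both had their highest mean at 25 h, whereas Hml had it at 6 h, and neither overlapped at 48 h with any earlier age. From 6 to 48 h the log2 change was -3.58 for PPO1 (SE 0.53, adjusted p = 0.00247). For PPO2 it was -3.51 (SE 0.46, adjusted p = 0.00164).

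PPO1 and PPO2 were close to each other in every library. Per kb of exon, PPO2 stood at 88.8% to 126% of PPO1, the highest share being in 48 h A. The prophenoloxidase genes are paralogs, and how the authors' counting treated reads that match more than 1 of them is not given in the sources used here. The profile nearest to PPO1 was that of PPO2 (distance 0.152), and Hml ranked 21 (0.738). Outside the blood cell set the nearest were Elk (0.270), lz (0.303), TpnC41C (0.487), CG15343 (0.511) and CG10467 (0.520).

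The first 2 of these relate to PPO1 by position and by cell fate. The RUNX factor gene lz sets the crystal cell fate, and its signal was 58.2 and 94.7 at 6 h, 84.8 and 59.1 at 15 h, 88.4 and 84.8 at 25 h, 69.8 and 27.1 at 35 h, then 1.34 and 5.96 at 48 h. From 6 to 48 h its log2 change was -4.22 (SE 0.65, adjusted p = 0.00293). Elk encodes a potassium channel, and PPO1 lies inside its span on the opposite strand with no shared exon base. The signal of Elk was 184 and 295 at 6 h, 334 and 469 at 25 h, then 20.7 and 44.7 at 48 h, and in every library it was 1.19% to 2.11% of that of PPO1. The part of reads from PPO1 transcripts in the Elk values was not tested.

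**Figure D2:**
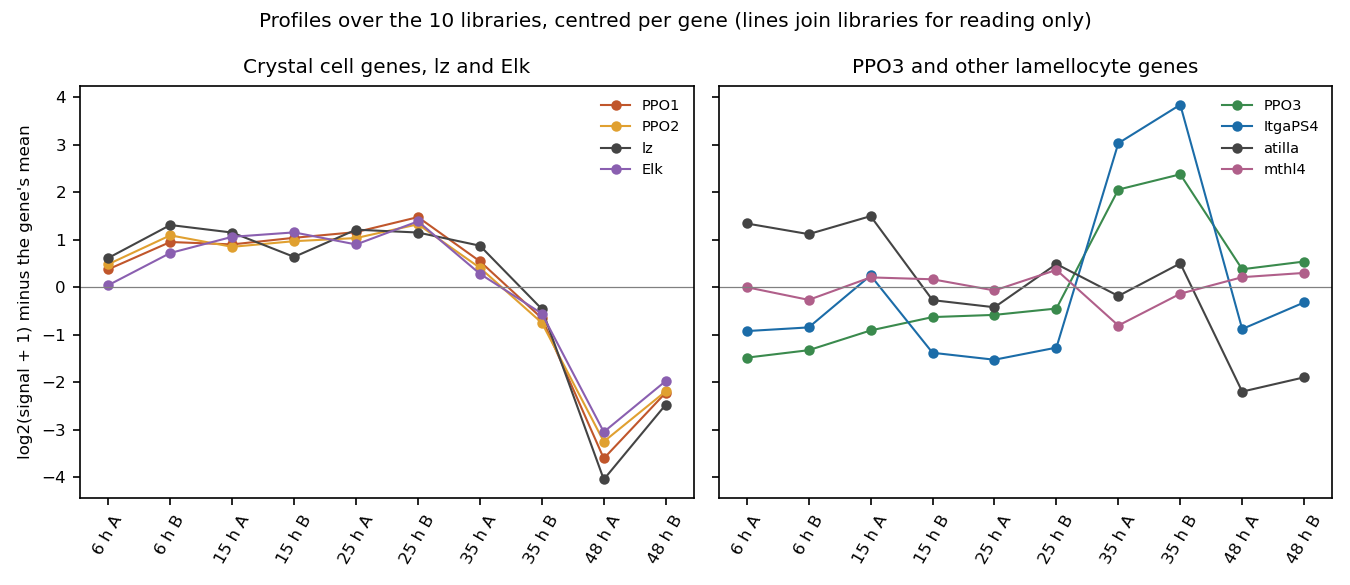
Log2(signal + 1) minus the gene's own mean over the 10 libraries, for PPO1, PPO2, lz and Elk (left) and for PPO3, ItgaPS4, atilla and mthl4 (right), with lines only to guide the eye. On the left all 4 genes are lowest at 48 h, and on the right PPO3 and ItgaPS4 peak at 35 h while atilla and mthl4 do not.

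PPO3, the lamellocyte gene, peaked at 35 h. It encodes a prophenoloxidase that lamellocytes make (FBgn0261363, 2R:23064769-23067183, plus strand). Its signal was 39.4 and 44.0 at 6 h, 59.1 and 72.0 at 15 h, 74.4 and 81.7 at 25 h, 468 and 586 at 35 h, then 146 and 163 at 48 h. No 2 ages overlapped, and the order of ages was 35, 48, 25, 15 and 6 h from high to low. It rose from 6 to 48 h, with a log2 change of 1.86 (SE 0.22, adjusted p = 0.00116), and 3.26 after quantile normalization. Per kb of exon PPO3 stood at 0.200% to 0.307% of PPO1 from 6 to 25 h, at 2.82% and 8.09% at 35 h, and at 15.6% and 6.69% at 48 h.

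Of 5 other lamellocyte genes tested, 1 rose from 25 to 35 h and 0 fell (median log2 change 0.12), with 0.851% of all tested genes called higher and 3.09% lower. The one was ItgaPS4, and it was singled out after its values were seen. This integrin subunit gene of lamellocytes had a signal of 24.0 and 25.4 at 6 h, 55.2 and 17.2 at 15 h, 15.4 and 18.6 at 25 h, 387 and 678 at 35 h, then 24.7 and 36.9 at 48 h. It rose from 25 to 35 h with a log2 change of 4.84 (SE 0.57, adjusted p = 0.0212), and both 35 h libraries stood above all others. The gene atilla, which encodes the L1 surface antigen of lamellocytes, was at 532 and 455 at 6 h, 184 and 297 at 35 h, then 44.8 and 55.4 at 48 h. It fell from 6 to 48 h (log2 change -3.28, adjusted p = 0.00519) and its 35 h libraries overlapped with those of 25 h, at 156 and 294. The receptor gene mthl4 was at 556 and 751 at 25 h and 333 and 530.1 at 35 h, and did not pass from 25 to 35 h (log2 change -0.62, adjusted p = 0.224). Neither did the integrin gene mys (0.10, 0.78) nor msn, a widely expressed kinase gene (0.12, 0.486). From 6 to 48 h, 1 of the 5 rose (msn, log2 change 0.40, adjusted p = 0.00817) and 1 fell (atilla), near the 22.3% and 26.8% of all genes called higher and lower.

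Between neighbouring ages few of the 10 genes passed the test. From 6 to 15 h limma called 0 of the 10 (2 at an unadjusted p under 0.05), against a background of 4.22%. On the recovered reads edgeR called 0 and DESeq2 called 1, Nplp2. From 15 to 25 h only NimC2 was called, and it was higher (log2 change 4.86, SE 0.52, adjusted p = 0.0385, background 0.124% higher). Leaving out any library but 15 h B ended that call, with adjusted p of 0.0676 to 0.15.

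From 25 to 35 h, PPO3 rose and NimC2 fell. The log2 change of PPO3 was 2.73 (SE 0.22, adjusted p = 0.0177), with 0.851% of all tested genes called higher. It was no longer called without 25 h A or without any one of the 35 and 48 h libraries (adjusted p 0.0563 to 0.149). The log2 change of NimC2 was -2.81 (SE 0.52, adjusted p = 0.0406), with 3.09% of all tested genes called lower. Leaving out any library but those of 15 h ended it (adjusted p 0.0585 to 0.219). Nplp2 stood just outside, at -2.92 (SE 0.62, adjusted p = 0.0539).

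From 35 to 48 h limma called 1 of the 10 genes, PPO3, which fell (log2 change -1.76, SE 0.22, adjusted p = 0.0477; 0.239% of all genes were called lower). Omitting any single library other than those of 15 h ended this call (adjusted p 0.0947 to 0.246). The log2 change was -1.69 for Hml (adjusted p = 0.0674), -1.68 for Sr-CI (0.0509), -1.35 for Pxn (0.103), -2.86 for PPO1 (0.0791) and -2.55 for PPO2 (0.0756). These values did not pass although all of these genes were lower in both 48 h libraries than in either 35 h library. The spread of the 15 h pair enters every limma comparison: without both 15 h libraries, 8 of the 10 were called from 35 to 48 h, 7 of them lower and NimC2 higher, against a background of 10.1%. The same 8 genes were called without 15 h A alone (background 10.2%), without 15 h B alone (9.79%) and by DESeq2 (5.44%), while edgeR called 0 (8 at an unadjusted p under 0.05).

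The 35 h replicates differed in one direction for most of these genes. Replicate A was higher than B for 8 of the 10, with a median log2 difference of 0.82 against 0.01 over all tested genes, and PPO3 and NimC2 went the other way. The ratio of A to B at 35 h was 1.88 for Hml, 1.85 for Pxn, 1.65 for Sr-CI, 2.30 for PPO1 and 2.23 for PPO2. At 6 h replicate B was higher for 9 of the 10 (median log2 difference of A from B -0.50, against -0.02 over all tested genes). At 48 h the plasmatocyte genes Hml, Pxn and Sr-CI agreed within 1.06-fold, but PPO1 was 2.61-fold and PPO2 2.08-fold higher in B. The gap between replicates was thus shared by several of these genes at 6 and 35 h, and at 48 h it was wide for the crystal cell genes only among the 5 named here. It was not particular to blood cell genes. The sum of 4 muscle genes was 159483 and 221216 at 6 h and 47187 and 21806 at 35 h. Gut proteases went the other way at both ages (105678 and 63810, then 380 and 1905). The fat body sum was higher in B at both (282045 and 575685, then 104971 and 132973).

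To set the blood cell classes against one another, each gene was also expressed relative to Hml in the same library, a measure added after the data had been seen. Per kb of exon, Sr-CI kept between 36.3% and 51.6% of Hml in all 10 libraries, and Pxn went from 66.8% and 64.9% at 6 h to 115% and 116% at 48 h. The level of eater went from 8.51% and 7.77% of Hml at 6 h to 10.3% and 10.4%, 13.5% and 14.1%, 22.4% and 25.0%, and then 55.7% and 59.9% at 48 h. No 2 ages overlapped for eater on this scale, on which each age stood above the one before. The signal of eater itself did not pass the F test over the 5 ages (adjusted p = 0.372), while Hml fell. Relative to Hml, the log2 change of eater from 6 to 48 h was 2.83, against a median of 3.04 over all tested genes. Nplp2 per kb was at 2298% and 2677% of Hml at 6 h, 580% and 1424% at 15 h, 2419% and 937% at 25 h, 332% in both libraries at 35 h, then 81.3% and 125% at 48 h. Its course was not a steady one, since 25 h A stood above 6 h A, but the 35 h libraries lay below all earlier ones and those of 48 h lower still.

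Crystal cell genes varied against Hml over the 5 ages (moderated F test, adjusted p = 0.0082 for PPO1 and 0.0167 for PPO2), as did 84.8% of all genes. PPO1 per kb was 215% and 222% of Hml at 6 h, 409% and 463% at 15 h, 495% and 635% at 25 h, 399% and 327% at 35 h, then 98.5% and 263% at 48 h. The highest share was at 25 h, and the 48 h pair spanned the 6 h values. By limma relative to Hml, no single step up to 35 h passed for PPO1 or PPO2 (adjusted p 0.167 to 0.999). PPO3 was 0.572% and 0.444% of Hml at 6 h, 1.45% and 1.64% at 25 h, 11.2% and 26.5% at 35 h, then 15.4% and 17.6% at 48 h. From 35 to 48 h PPO3 relative to Hml had a log2 change of -0.06 (SE 0.55, adjusted p = 0.919).

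**Figure D3:**
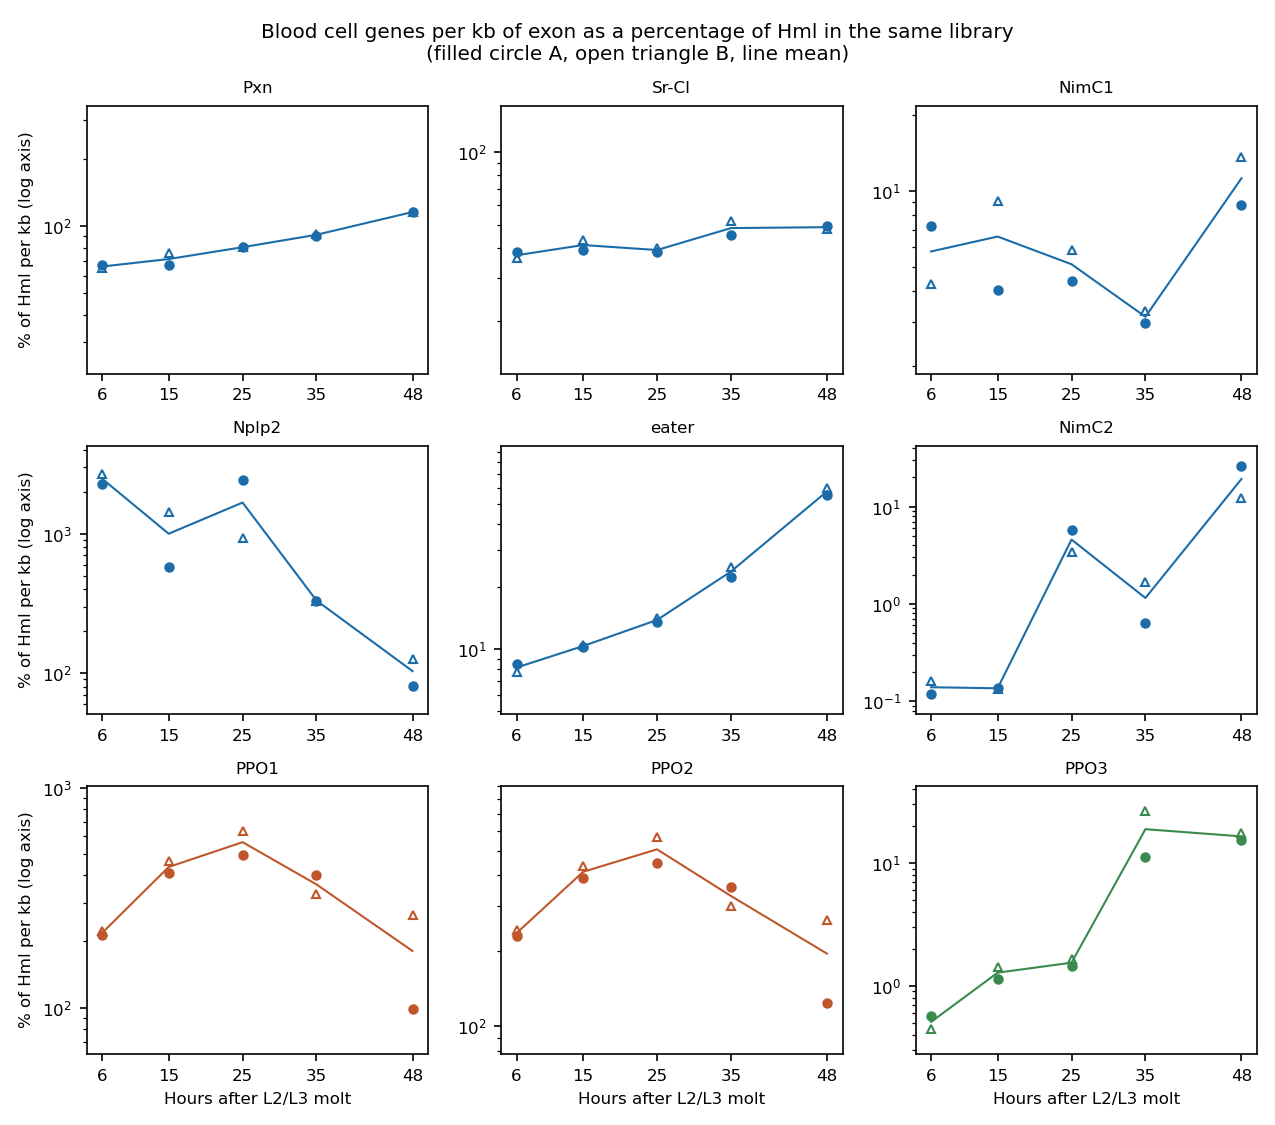
Level per kb of exon as a percentage of Hml in the same library (log axis) against hours after the molt, for the 9 genes other than Hml, with replicate A as filled circles, B as open triangles and a line through the mean. Sr-CI stays between 36.3% and 51.6%, eater reaches 59.9% at 48 h, where Hml itself is lowest, and PPO1 and PPO2 have their highest mean at 25 h.

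Limma was fitted in the same form to values relative to Hml. It called 5 of 9 genes from 6 to 48 h, where 82.5% of all genes were called. The spread of Hml between libraries enters every gene on this scale. These p-values may therefore be too small and do not compare with those of the signal. NimC2 (log2 change 6.93, adjusted p = 2.77e-06), PPO3 (5.00, 3.98e-06), eater (2.83, 5.96e-06) and Pxn (0.82, 0.0217) rose against Hml, as did 76.5% of all genes, Hml itself having fallen. The count of 4 in 9 lies below that background. Nplp2 fell against Hml (-4.61, adjusted p = 3.66e-06), where 5.94% of all genes did. Sr-CI (0.39, adjusted p = 0.272), NimC1 (0.99, 0.0874), PPO1 (-0.44, 0.348) and PPO2 (-0.37, 0.377) did not pass, with SEs of 0.32, 0.51, 0.42 and 0.38. For PPO1 the value rested on the 48 h pair: it was -1.15 without 48 h B (adjusted p = 0.0397) and 0.27 without 48 h A (0.621), and PPO2 was at 0.17 without 48 h A (0.749). The Pxn call was lost in 11 of 19 alternatives, 8 of them the omission of any 1 library but those of 35 h (adjusted p 0.0559 to 0.122).

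Single steps relative to Hml were tested in the same way. From 6 to 15 h limma called 0 of 9 (3 at an unadjusted p under 0.05, and 0 by edgeR and by DESeq2; background 0.191%). From 15 to 25 h NimC2 rose (log2 change 4.88, adjusted p = 0.00986, background 0.316% higher), and that call was lost without 25 h A (adjusted p = 0.0662). From 25 to 35 h PPO3 rose (3.47, adjusted p = 0.011, background 0.22%) and Nplp2 fell (-2.18, adjusted p = 0.0492, background 1.36%). The PPO3 call ended without 25 h A (adjusted p = 0.129) and without 35 h B (0.0946). The Nplp2 call ended without 25 h A, without 35 h B and without any one of the 6 and 48 h libraries (0.0534 to 0.491).

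From 35 to 48 h, eater (1.29, adjusted p = 0.00497), NimC1 (1.80, 0.00747) and NimC2 (4.09, 0.00289) rose against Hml, with 70.4% of all genes. Nplp2 (-1.71, adjusted p = 0.00834) and PPO1 (-1.17, 0.0257) fell faster than Hml, with 0.373% of all genes. PPO2 stood at -0.86 (adjusted p = 0.0589). Omitting either 35 h library or 48 h A ended the PPO1 call (adjusted p 0.0503 to 0.413), and that of Nplp2 without 35 h A or 48 h A (0.0657 and 0.0734). Without 48 h B, eater (adjusted p = 0.0576) and NimC1 (0.0803) were no longer called and PPO2 was (-1.40, 0.0351). The moderated F test over the 5 ages called 6 of 9 against a background of 84.8%, with Sr-CI (adjusted p = 0.664), Pxn (0.122) and NimC1 (0.0586) not passing.

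**Figure D4:**
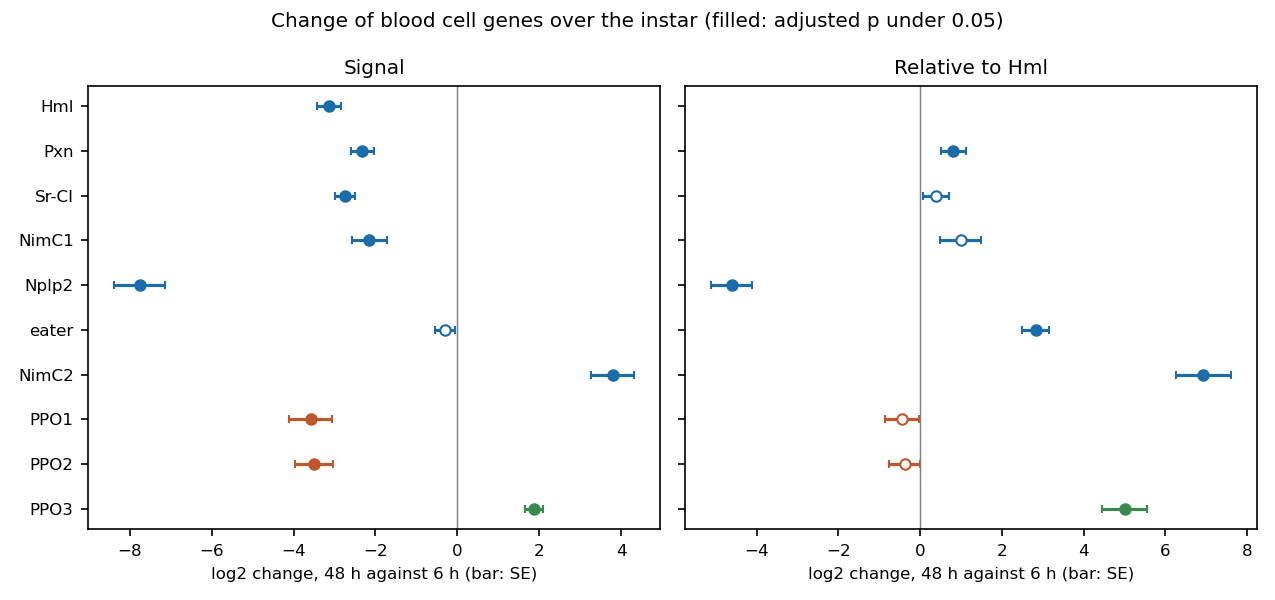
Log2 change from 6 to 48 h of each blood cell gene (points, bars are SEs) for the signal (left) and relative to Hml (right), filled where the adjusted p is under 0.05. On the left NimC2 and PPO3 lie above 0 and the other 8 below it, eater with an open point, and on the right Sr-CI, PPO1 and PPO2 lie between -0.44 and 0.39.

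The order of levels among the 10 genes changed over the instar. Per kb of exon at 6 h, Nplp2 stood highest (71003 and 119077), followed by PPO2 (7055 and 10747) with PPO1 (6645 and 9893), Hml (3090.4 and 4449), Pxn (2065 and 2888), Sr-CI (1188 and 1613), eater (263 and 346), NimC1 (224 and 189), PPO3 (17.7 and 19.8) and NimC2 (3.64 and 7.10). PPO1 and PPO2 were the only neighbours in that order whose libraries overlapped. At 48 h the upper genes had drawn together, with PPO2 at 529 and 1102, PPO1 at 420 and 1096, Pxn at 492 and 484, Nplp2 at 346 and 521, and Hml at 426 and 416. Each of these overlapped with its neighbour in that order. Then came eater (237 and 249), Sr-CI (211 and 200), NimC2 (112 and 50.5), PPO3 (65.4 and 73.3) and NimC1 (37.6 and 56.8). In this lower group NimC2 overlapped with both PPO3 and NimC1, and no other pair overlapped.

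Other genes of the same pathways, from lists chosen with earlier results of these data known, gave a wider view of these classes. Of 11 other phagocytosis receptor genes tested, 9 fell from 6 to 48 h and 0 rose, where 26.8% of all genes were called lower and 22.3% higher (median log2 change -2.56, against -0.10 over all genes). The largest changes were those of the secreted Nimrod genes NimB3 (-4.91, adjusted p = 0.00143), NimB2 (-4.75, 0.000903) and NimB5 (-4.12, 0.00052), and of the scavenger receptor gene Sr-CIV (-3.82, 0.0113). NimB2 had a signal of 3027 and 4434 at 6 h, 527 and 1176 at 15 h, 7611 and 2969 at 25 h, 193 and 212 at 35 h, then 111 and 166 at 48 h. Its replicates at 25 h differed in the direction of Nplp2 and of the fat body genes, and its highest library was 25 h A. NimB2, NimB3 and NimB5 had also fallen from 25 to 35 h, where 3.09% of all genes were called lower. At 15 h, Sr-CIV was at 381 and 48.4, pes at 3080 and 247 and PGRP-LC at 934 and 233. The gut protease sum was also higher in A at that age (246103 and 5003), whereas NimB2 and NimB3 were higher in B. The part of gut RNA in these values was not tested.

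Of 9 other plasmatocyte and lineage genes tested, 2 fell and 3 rose from 6 to 48 h, counts near the background of 26.8% lower and 22.3% higher. The GATA factor gene srp fell (-2.37, adjusted p = 0.0025), as did He, which encodes the pan-haemocyte surface protein Hemese (-1.52, 0.00331). Pvf2 (2.15, adjusted p = 0.00377) and Pvf3 (1.33, 0.00981), ligands of the growth factor receptor Pvr, rose, and ush also rose. All 6 matrix genes that blood cells and fat body both express fell, led by Tig (-4.12, adjusted p = 0.00229), Col4a1 (-3.95, 0.00102), vkg (-3.83, 0.000693) and Glt (-3.03, 0.00334). Col4a1 and vkg encode the collagen IV chains of basement membranes.

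Of 4 other crystal cell genes, 3 fell from 6 to 48 h (26.8% of all genes did): CG17109 (-8.77, adjusted p = 0.000804), lz and fok (-1.62, 0.013). The fourth, peb, did not pass. CG17109 had a signal of 7711 and 4161 at 6 h and 9354 and 1044 at 15 h. It was at 672 and 598 at 25 h and 16.0 and 8.94 at 48 h. Its 25 h libraries lay below those of 6 h, whereas PPO1 and PPO2 had their highest mean at 25 h. At 15 h, replicate A was also above B for fok (2670 and 1154), peb (2429 and 428) and lz (84.8 and 59.1). The gut protease sum was 246103 and 5003 at that age. The part of gut RNA in these values was not tested. Of 10 melanization genes tested, 3 fell and 2 rose from 6 to 48 h, which is near the 26.8% and 22.3% of all genes. The fallers were yellow-f2 (-5.98, adjusted p = 0.00046), which acts in melanin synthesis, and the serine protease genes psh (-4.33, 0.000566) and Sp7 (-2.38, 0.0143). All of these 3 had fallen from 25 to 35 h as well, whereas PPO1 and PPO2 did not pass in that step. Of the serpin genes, Spn77Ba rose by 1.39 (adjusted p = 0.000652), and Spn27A also rose. NimC3, cher and MP1 were not analysed here.

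Markers of tissues other than blood and disc moved over the same ages. The summed signal of 4 muscle genes was 159483 and 221216 at 6 h and 6545 and 4609 at 48 h, and all 4 fell, Act57B by 5.28 on the log2 scale (adjusted p = 0.000253). The 6 gut protease genes summed to 105678 and 63810 at 6 h, 246103 and 5003 at 15 h, then 140.4 and 168 at 48 h, and all 6 fell. Of the 9 fat body genes, 3 fell and 3 rose, and at 25 h they took 16.1% and 8.84% of all reads. None of the fat body, muscle or gut genes was at 0 in both libraries of any age. Of 5 trachea genes 1 rose and 2 fell, of 5 neuronal genes 3 fell, and of 2 adult muscle precursor genes 1 rose. These counts from 6 to 48 h stand against 26.8% of all genes called lower and 22.3% higher, and those of trachea are near it. The 2 muscle precursor genes are too few to set against that background. The part of RNA from attached or carried-over tissue in the fall of the blood cell genes was not tested.

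**Figure D5:**
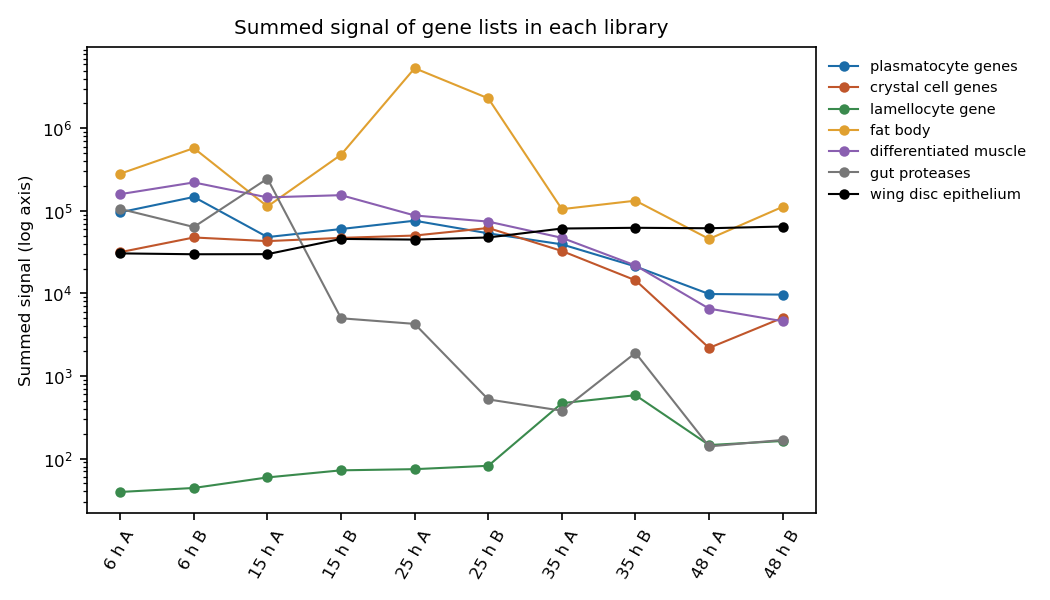
Summed signal (log axis) in each library of the plasmatocyte, crystal cell and lamellocyte genes and of the fat body, muscle, gut protease and wing disc epithelium lists, with lines only to guide the eye. The blood cell, muscle and gut sums are lowest at 48 h apart from the lamellocyte gene, the fat body sum is highest at 25 h, and the wing disc sum is 30563 in 6 h A and 64679 in 48 h B.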

How the data were processed

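Wing disc RNA of 10 libraries, 2 at each of 5 ages, was analysed from 1 deposited table. Its unit is signal, which the deposited values themselves show to be reads per gene over a size factor of the library. Undoing that factor left whole reads, within 0.001, for 100% of values. Per the submitters' processing notes, STAR 2.7.10a and featureCounts were used with the builds dm6 and BDGP6; the roles of the tools, strand setting, treatment of multiply matching reads and filters are not given in the sources used here. The labels name polyA RNA, while their protocol describes total RNA, with ribosomal RNA removed and strand kept. Gene positions, exon lengths and overlaps were taken from the Ensembl BDGP6.54 annotation, which has dm6 coordinates.

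Ages were the groups. A gene was tested if 2 or more libraries reached a signal of 10 (10453 were, 2588 were not). Log2(signal + 1) was fitted by limma 3.58.1 (R 4.3.3, trended prior) with a mean for each age and, per gene, a single spread over the 10 libraries. Tests were two-sided and adjusted by Benjamini-Hochberg over all tested genes, with a threshold of 0.05. Log2 changes are on the log2(signal + 1) scale, which understates those of low genes. Comparisons were each age with the one before, 48 h with 6 h, and all 5 ages by a moderated F test. Values relative to Hml are log2(signal + 1) minus that of Hml in the same library, fitted across the other 10452 genes. The spread of Hml between libraries is then shared by all genes, so p-values on this scale, F tests included, may be too small. The scripts were tested on simulated data. From 6 to 48 h limma called 5130 genes, and on the recovered reads edgeR 4.0.16 called 4970 and DESeq2 1.42.0 called 5775.

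Alternatives were those count models, pseudocounts of 5 and 0.5, no filter, quantile and common-median scaling, a replicate block, and the omission of each library and of both 15 h libraries. The 10 genes and all lists were chosen with earlier results of these data known. Named from each other list were up to 4 genes with the largest change from 6 to 48 h among those past the threshold, and the 5 genes nearest in profile to Hml and to PPO1. Besides these, ItgaPS4, rk, CG16986, ush, Spn27A, mthl4, mys, peb, crq, pes and PGRP-LC were named after their values were seen, as neighbours in sequence or as remaining members of a list.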

Additional observations from a re-analysis of the deposited data

How the results depend on the processing

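The counts of 9 of the 10 genes called from 6 to 48 h and by the F test held in every alternative within 8 to 9. The letters A and B share only a letter: the correlation of the difference of A from B between ages was -0.059 to 0.161 over 10 pairs of ages, so no pairing was assumed. With the replicate block, 9 genes were called from 6 to 48 h, 0 from 15 to 25 h, 1 from 25 to 35 h and 0 from 35 to 48 h. For 6 to 15 h the count was 1 with DESeq2 (0 as reported). For 15 to 25 h it was 0 with edgeR, without the filter and after quantile scaling. For 25 to 35 h it was 1 with edgeR, quantile scaling or common-median scaling, and 4 with DESeq2 or without both 15 h libraries. For 35 to 48 h it was 0 with edgeR, no filter, quantile scaling or common-median scaling, 2 with a pseudocount of 0.5, and 8 with DESeq2 or without both 15 h libraries. Leaving out 1 library gave 0 to 1, 0 to 1, 0 to 4 and 0 to 8 genes for these 4 steps, and 8 to 9 from 6 to 48 h and by the F test. Relative to Hml it gave 0 to 1, 0 to 1, 0 to 3 and 3 to 5 for the steps, 4 to 5 from 6 to 48 h and 5 to 7 by the F test. Relative to Hml, 1 gene was called from 25 to 35 h (2 as reported) with edgeR, pseudocounts of 5 or 0.5, or no filter. Signs turned in 3 cases, none called: eater from 6 to 48 h was at 0.0097 with common-median scaling, and without 48 h A PPO1 and PPO2 relative to Hml were at 0.27 and 0.17, against lows of -1.15 and -0.92 without 48 h B. Of 720 values of single genes under alternatives, 609 kept direction and side of the threshold, 77 lost a call and 31 gained one; the cause was not tested. With 2 libraries per age, NimC2 at 15 h rested on as few as 7 reads and PPO3 at 6 h on 33, which limits the precision of their changes.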

Other observations

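Of the genes nearest to Hml in profile, CG42711 had a signal of 247 and 336 at 6 h and 34.1 and 39.9 at 48 h, and Ance-5, named for its likeness to angiotensin-converting enzyme, 1629 and 1962 at 6 h and 287 and 251 at 48 h. Both stood highest at 6 h and lowest at 48 h, with replicate B above A at 6 h and below it at 35 h, as Hml did. Of those nearest to PPO1, CG10467 had 2376 and 3289 at 6 h, 4733 and 5428 at 25 h, 3477 and 1647 at 35 h, then 459 and 723 at 48 h. CG15343 had 301 and 535 at 6 h, 552 and 608 at 25 h, 381 and 182 at 35 h, then 40.8 and 111 at 48 h. Both shared with PPO1 a higher A replicate at 35 h and a higher B replicate at 48 h. All 4 genes were picked for their likeness over these same 10 libraries, so shared highs, lows and replicate gaps follow from that choice. The values are descriptions, with no test.

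The phagocytosis receptor gene crq had a signal of 9999.7 in 15 h A and 1075 in 15 h B, against 1050.0 to 1652 in the other libraries. Gut proteases summed to 246103 in that same 15 h A library and 5003 in 15 h B. The part of gut RNA in the crq value was not tested.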
